A study of Mus musculus with 8 samples.

Results

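Minoxidil, a topical drug given for hair loss, was compared with water on the back skin of mice, over all genes that the arrays measured. The comparison used 4 of the 8 arrays of the series, the 2 titled minoxidil and the 2 titled control, chosen by those titles. The animals were male C3H mice, an inbred strain, aged 7 weeks at the start. After 7 days of acclimatization they were assigned at random to groups of 8, their backs were trimmed and depilated with a cream, and each was treated on the skin once a day for 20 days. The control mice received Milli-Q water. The minoxidil mice received 1% minoxidil by the treatment protocol and by both array descriptions, but the source name of minoxidil array 2 gives 2%. The vehicle of minoxidil is not given in the sources used here, and the titles of the control arrays call them the control of the 2 other treatments of the series, tieghemelin and maslinic acid. All 4 groups shared strain, sex, depilation and length of treatment. The labels do not tie an array to a mouse or to a pool of mice, so a spread between arrays may be technical, and with 2 arrays a group their number limits the precision.

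Hair follicles pass through rounds of growth (anagen), regression (catagen) and rest (telogen), and depilation of resting skin starts a new round. During growth the hair matrix builds the shaft from keratins and keratin-associated proteins, the inner root sheath moulds it, and melanocytes supply pigment, under WNT, BMP, hedgehog and FGF signals exchanged with the dermal papilla. Minoxidil is converted by sulfotransferases to minoxidil sulfate, which opens ATP-sensitive potassium channels and relaxes vessels. Mouse back skin also lies on the panniculus carnosus, a thin sheet of skeletal muscle that comes with full-thickness skin.

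Values are deposited log2 signals, given in the order array 1, array 2. A difference is the minoxidil mean minus the control mean on that scale, with the standard error (SE) of the limma model over all 8 arrays. Control array 1 stood apart: its Pearson correlation with the 7 other arrays over 22206 probe sets was 0.518 to 0.538, against 0.901 to 0.966 among those 7. The 2 control arrays differed by a median of 0.886 log2 units per probe set, the 2 minoxidil arrays by 0.392. Against control array 1 the difference followed signal level, from a median of -0.85 in the dimmest of 10 equal bins of probe sets to 1.89 in the brightest, with bins set on the 4 arrays of the other treatments. Against control array 2 the bin medians lay between 0.01 and 0.11. Results are given against both controls and again against control array 2 alone, which rests on 1 control array. Krt5, a keratin of basal skin cells, was above background on all 4 arrays, while its partner Krt14 read 7.26 on control array 1, under the background of 7.75 there, and 10.68, 9.63 and 8.89 on the 3 others.

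**Figure D1:**
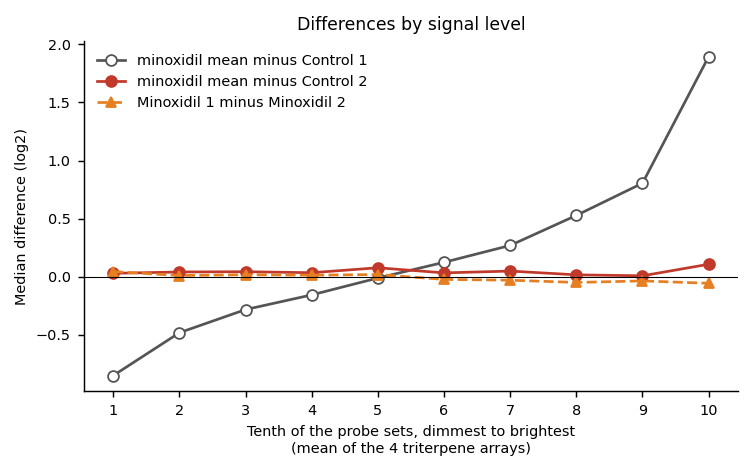
Median difference (log2) in 10 equal bins of the 22206 probe sets, ordered from dim to bright by the mean of the 4 tieghemelin and maslinic acid arrays. The line against control array 1 climbs from -0.85 to 1.89, while the line against control array 2 stays between 0.01 and 0.11 and that between the 2 minoxidil arrays stays near 0 as well.

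No probe set reached an adjusted p under 0.05 in limma with both controls (smallest adjusted p = 0.44), although 2502 had an unadjusted p under 0.05. At the study's thresholds, a fold change of at least 1.7 with an unadjusted p of at most 0.05, 1549 probe sets were higher with minoxidil (6.98%) and 953 lower (4.29%), together 11.3%. Against control array 2 alone, 1451 were higher (6.53%) and 1416 lower (6.38%), together 12.9%, and 1 gene, Fhl1, had an adjusted p under 0.05 (limma, adjusted p = 0.042), or 0.0045% of those tested. The 2 comparisons share arrays. 702 probe sets passed as higher in both (3.16%) and 490 as lower in both (2.21%), together 5.37%. The difference from control array 1 and that from control array 2 had the same sign for 56.5% of the probe sets. Of the 22206 probe sets 11845 had a higher and 10361 a lower mean with both controls. Against control array 2, 11852 were higher and 10354 lower. Below, "called" means at the study's thresholds, and "called in both" means with both controls and with control array 2 alone. The percentages and the counts by sign above are the background for counts of list members. A gene on no array of a group above that array's background, the median of 23 background probe sets (7.75 and 7.61 on the control arrays, 7.51 and 7.33 on the minoxidil arrays), is given a lower bound of the fold or none.

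**Figure D2:**
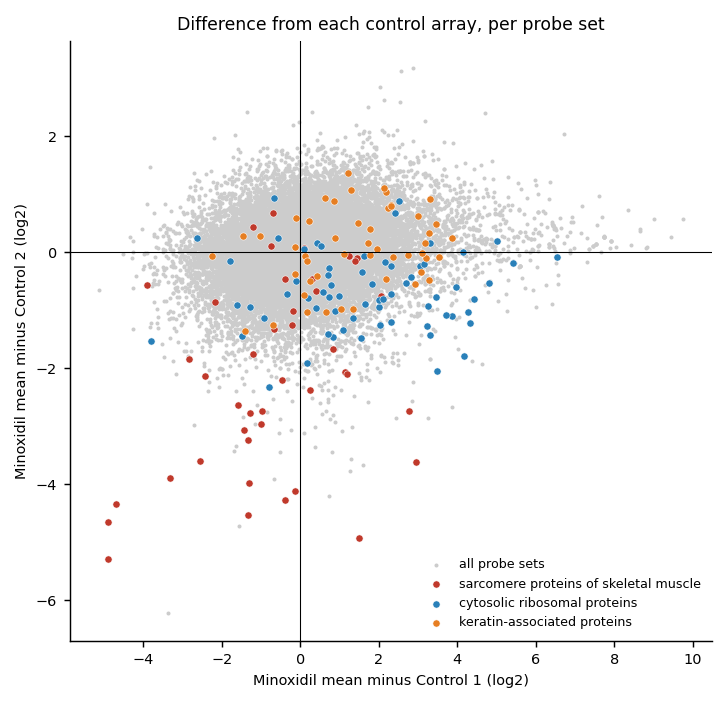
Difference of the minoxidil mean from control array 1 (horizontal, log2) and from control array 2 (vertical, log2) for each probe set. Of the sarcomere genes Tnnt3, Myh4, Myh8 and Tpm2 lie far below 0 on both axes, most ribosomal protein genes lie to the lower right (medians 1.74 and -0.76), and keratin-associated protein genes lie to the right around 0 on the vertical axis (medians 1.59 and 0.01).

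Among genes called in both, the 8 with the largest lower difference were all genes of skeletal muscle fibres or abundant in them (Tnnt3, Fhl1, Myh4, Myh8, Tpm2, Aldoa, Myh1 and Neb). Of 42 measured genes for the sarcomere, the contractile unit of striated muscle, 16 were called lower and 0 higher, with a median difference of -1.41 against 0.06 over all probe sets. Against control array 2 alone 28 were called lower and 0 higher, with a median of -2.11, and against control array 1 alone the median was -0.69. 15 were called lower in both, and both minoxidil arrays lay below both controls for 23 of the 42, where 15.6% of all probe sets did and 20.6% lay above both. Fewer muscle fibres in the sample and less of these RNAs per fibre cannot be told apart in bulk skin.

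The 250 bases before the start of the myosin heavy chain genes Myh4, Myh1 and Myh8 are printed here because these 3 genes on chromosome 11 were all lower and share a motif. They are from RefSeq promoters of build GRCm38.p6, plus strand, 5′ to 3′, with capitals for the MEF2 consensus (named for the MEF2 muscle transcription factors), the CArG box, CAGCTG and TATAAA on either strand.
Myh4 (chr11:67237562-67237811): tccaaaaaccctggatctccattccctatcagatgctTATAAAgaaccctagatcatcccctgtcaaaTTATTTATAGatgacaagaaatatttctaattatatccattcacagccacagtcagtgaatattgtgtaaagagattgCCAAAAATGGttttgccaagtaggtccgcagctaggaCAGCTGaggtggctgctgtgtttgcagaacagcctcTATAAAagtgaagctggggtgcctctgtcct
Myh1 (chr11:67199852-67200101): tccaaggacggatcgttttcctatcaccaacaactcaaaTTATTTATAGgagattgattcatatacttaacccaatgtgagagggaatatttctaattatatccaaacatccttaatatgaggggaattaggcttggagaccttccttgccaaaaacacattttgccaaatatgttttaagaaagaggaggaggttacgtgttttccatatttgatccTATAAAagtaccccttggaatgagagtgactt
Myh8 (chr11:67276874-67277123): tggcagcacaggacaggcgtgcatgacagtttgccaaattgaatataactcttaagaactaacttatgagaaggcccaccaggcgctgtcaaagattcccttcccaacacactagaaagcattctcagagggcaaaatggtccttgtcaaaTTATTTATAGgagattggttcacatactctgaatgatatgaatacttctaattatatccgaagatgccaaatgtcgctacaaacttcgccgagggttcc
All 3 hold the run TTATTTATAG, which matches the MEF2 consensus on both strands and contains TATAAA on the reverse strand. It starts 182 bases before the start site in Myh4, 211 in Myh1 and 99 in Myh8. Myh4 and Myh1 also carry TATAAA on the forward strand, 31 and 32 bases before the start, and Myh8 has no forward match in this window. The MEF2 consensus was found in 2.92% of 32851 promoter windows of this length and in 7 of 39 windows (17.9%) of the 33 sarcomere genes with an entry. TATAAA was found in 12.4% of all windows and in 9 of the same 39, the CArG box in 1.47% and 6, and CAGCTG in 13.0% and 14. These are matches of letters, not measured sites.

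Myh4, the heavy chain of the fastest fibres, read 17.03 and 16.77 on the control arrays and 11.97 and 12.25 on the minoxidil arrays, a difference of -4.79 ± 1.31 (SE). Both controls were high and both minoxidil arrays low, with a wide gap between the groups. Myh8, the perinatal heavy chain, read 17.94 and 17.59 with water against 13.19 and 13.31 with minoxidil (-4.52 ± 0.86), and Myh1, a heavy chain of fast fibres, read 13.09 and 14.15 with water against 10.73 and 10.36 with minoxidil (-3.08 ± 0.69). The heavy chain genes are alike in sequence, so a probe set may also read a relative of its named gene. Tnnt3, the fast troponin T that ties the calcium switch to the thin filament, read 15.87 and 16.25 with water against 10.80 and 11.13 with minoxidil, a 34.2-fold lower mean (-5.10 ± 1.15). Its gap between the groups was the widest of all genes called in both. Tpm2, a tropomyosin that lies along the thin filament, read 13.21 and 13.80 with water against 10.21 and 9.58 with minoxidil (-3.60 ± 0.56). These 5 genes were called in both and their groups did not overlap. Actn2, the alpha-actinin of the Z-disc, read 11.21 and 10.91 with water against 8.99 and 8.57 with minoxidil (-2.28 ± 0.36), and Des, the intermediate filament desmin, read 10.70 and 9.70 with water against 8.04 and 7.66 with minoxidil (-2.35 ± 0.49). Each minoxidil array was below each control array in these as well.

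Other sarcomere genes were low with minoxidil mainly beside control array 2. Tpm1, a second tropomyosin, read 11.90 and 18.31 with water against 13.82 and 12.96 with minoxidil, so the minoxidil arrays lay between the controls. Its difference from control array 2 alone was -4.92 ± 1.13, against -1.72 ± 1.91 from both. Tnni2, the fast inhibitory troponin, read 11.28 and 15.26 with water against 11.25 and 11.03 with minoxidil, and Myh2, a heavy chain of oxidative fast fibres, read 8.16 and 12.04 with water against 8.62 and 6.91 with minoxidil. In both, control array 1 was near the minoxidil arrays and control array 2 was high. Neb, the ruler of the thin filament, read 10.40 and 13.58 with water against 9.48 and 8.62 with minoxidil (-2.94 ± 1.08, and -4.53 ± 0.79 against control array 2) and was called in both. Acta1, skeletal actin, read 12.83 and 14.80 with water against 12.09 and 11.58 with minoxidil (-1.98 ± 0.77) and was called in both as well. In these 2 genes both controls were above both minoxidil arrays, but control array 1 was the nearer. Titin (Ttn), the giant spring of the sarcomere, read 12.38 and 13.87 with water against 11.50 and 10.70 with minoxidil, and Actn3, an actinin of fast fibres, read 8.78 and 11.40 with water against 9.04 and 9.03 with minoxidil. Both were called only against control array 2.

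**Figure D3:**
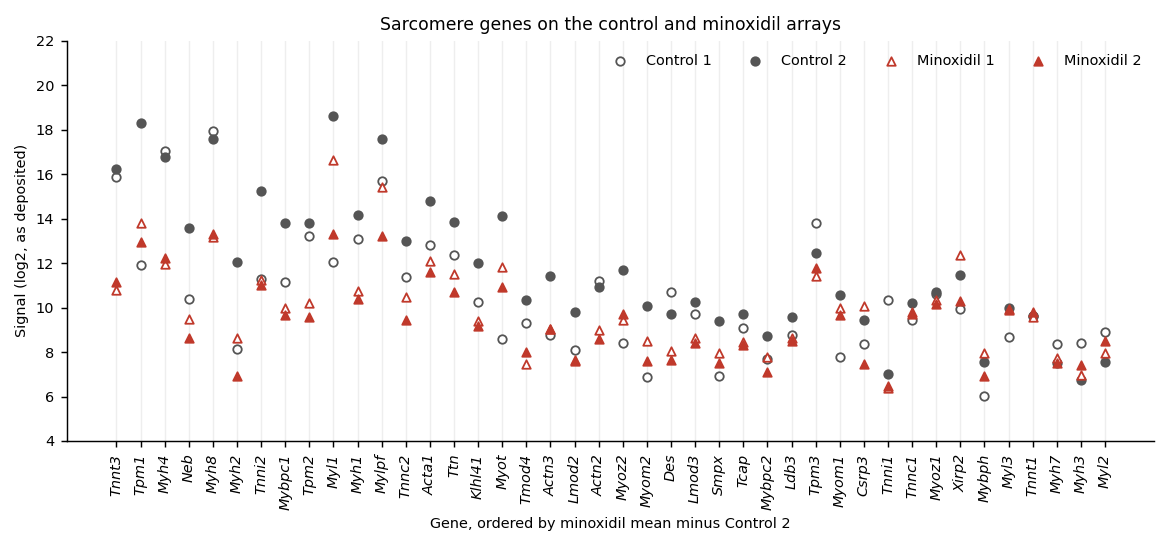
Deposited log2 signal of the 42 sarcomere genes on the 2 control arrays (circles) and the 2 minoxidil arrays (triangles), ordered by the difference from control array 2. Tnnt3, Myh4, Myh8 and Tpm2 show both circles far above both triangles, while for Tpm1 and Myot the open circle of control array 1 lies below the triangles and that of control array 2 above them.

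Of 22 genes of calcium handling and excitation 5 were called lower with both controls (Atp2a1, Ryr1, Hrc, Srl and Atp1b1) and 9 with control array 2 alone, with medians of -0.55 and -0.63, and none was called higher. Atp2a1, the calcium pump of the sarcoplasmic reticulum, read 12.63 and 14.02 with water against 11.86 and 10.48 with minoxidil (-2.16 ± 0.71). Ryr1, the calcium release channel, read 7.88 and 8.98 with water against 6.97 and 7.39 with minoxidil (-1.25 ± 0.52). Atp1b1, a sodium pump subunit, read 8.37 and 9.04 with water and was not above background with minoxidil (7.06 and 6.69), at least 2.44-fold lower. These 3 and Hrc, which binds calcium in the reticulum, were called in both, with no overlap between the groups. Casq1, the main calcium store of the reticulum, read 7.99 and 11.70 with water against 8.46 and 8.24 with minoxidil and was called only against control array 2.

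Among 29 genes of muscle energy metabolism 3 were called lower with both controls (Aldoa, Pgam2 and Mb, all 3 in both) and 14 against control array 2, with medians of -0.41 and -1.25, and none was called higher. The 29 include Pigq, a gene of lipid anchor synthesis and not of muscle energy metabolism. Aldoa, a glycolytic aldolase, read 12.35 and 15.51 with water against 11.36 and 10.23 with minoxidil (-3.14 ± 0.95, and -4.72 ± 0.56 against control array 2). Mb, the oxygen-binding myoglobin, read 10.55 and 12.38 with water against 9.93 and 9.77 with minoxidil (-1.61 ± 0.64). In both genes the minoxidil arrays were below both controls and farther from control array 2. Slc25a4, the ADP/ATP carrier of muscle mitochondria, read 11.39 and 14.61 with water against 10.61 and 10.82 with minoxidil, and the creatine kinase Ckm read 11.26 and 11.56 with water against 9.89 and 10.31 with minoxidil. Both were called only against control array 2, although control array 1 was also above the minoxidil arrays in each.

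Fhl1, a LIM protein abundant in skeletal muscle, was the gene with an adjusted p under 0.05, without control array 1. It read 12.49 and 15.35 with water against 9.93 and 8.33 with minoxidil, and its difference from control array 2 was -6.22 ± 0.66, a 74.8-fold lower mean. With both controls the difference was -4.80 ± 0.94. Of 20 muscle regulators, satellite cell and atrophy genes 1 was called higher (Six4) and 3 lower (Mef2d, Fhl1 and Fbxo32) with both controls, and 0 and 6 against control array 2. The ubiquitin ligase Fbxo32, an atrophy gene, read 9.31 and 8.68 with water against 7.87 and 7.66 with minoxidil and was called lower in both. Myog, a factor of differentiating muscle, read 7.80 and 7.98 with water against 7.98 and 7.86 with minoxidil (0.03 ± 0.39), with overlapping groups. Myod1 and Pax7, which mark myoblasts and satellite cells, were below background in both groups. Mef2c, of the family that binds the motif above, read 7.08 and 11.19 with water against 9.17 and 9.06 with minoxidil, between the controls.

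The level of muscle RNA also differed among arrays of 1 group. The median over the 42 sarcomere genes was 9.82 and 11.15 on the control arrays and 9.68 and 9.51 on the minoxidil arrays. It was 8.64 and 8.65 on the tieghemelin arrays and 9.76 and 8.75 on the maslinic acid arrays, a spread within the last pair wider than the distance from control array 1 to minoxidil. Tnnt3 read 8.68 and 6.94 with tieghemelin, 13.88 and 9.82 with maslinic acid, so the minoxidil arrays were below water, above tieghemelin and between the maslinic acid arrays. How much muscle each piece of skin held is not given in the labels, and its part in these differences was not tested.

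The naming rule took the 12 genes per direction with the widest gap between the groups among those called in both. 7 of the 12 lower genes were Tnnt3, Myh4, Myh8, Tpm2, Fhl1, Myh1 and Actn2 above, and the other 5 were Usp9x, Rsrc2, Brwd1, Ndufs5 and Hadh. Rsrc2, an arginine and serine rich protein, read 11.005 and 11.05 with water against 8.81 and 8.50 with minoxidil (-2.37 ± 0.37). Usp9x, a deubiquitinase, read 9.28 and 9.55 with water and was not above background with minoxidil (6.18 and 6.96), at least 3.98-fold lower. Brwd1, a bromodomain protein, read 8.16 and 8.20 with water and was also not above background with minoxidil (6.07 and 6.01), at least 1.7-fold lower. In these 3 genes the controls were alike and both were above the minoxidil arrays. Ndufs5, a subunit of respiratory complex I, read 10.14 and 10.06 with water against 8.03 and 8.08 with minoxidil (-2.05 ± 0.40). Hadh, an enzyme of fatty acid oxidation, read 8.72 and 8.21 with water against 6.23 and 6.29 with minoxidil, below background with minoxidil and at least 2.06-fold lower.

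Of the 12 genes with the widest gap upwards, 6 were odorant receptors, a large family known from the sensory neurons of the nose. Olfr206 was not above background with water (6.14 and 5.82) and read 9.10 and 8.90 with minoxidil, at least 2.49-fold higher. Olfr1129, also not above background with water (7.54 and 7.06), read 9.61 and 9.75, at least 3.99-fold higher, and Olfr994 read 5.86 and 8.17 with water against 10.13 and 10.99 with minoxidil (3.55 ± 0.89). In these 3 genes both minoxidil arrays were above both controls. Of 1412 odorant and vomeronasal receptor genes 247 were called higher and 14 lower with both controls, 192 and 33 against control array 2, and 134 and 2 in both. The median level over the family was 7.91 and 8.64 on the control arrays, 8.82 and 8.87 on the minoxidil arrays and 8.58 to 8.79 on the 4 others. Control array 1 was thus the lowest of the 8, and control array 2 lay within the range of the other treatments. Members of this family are alike in sequence, so a probe set may also read a relative of its named gene.

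The remaining higher genes of that rule included myeloid and secreted proteins. Clec5a, an activating lectin receptor of myeloid cells, was not above background with water (6.52 and 6.89) and read 9.27 and 8.71 with minoxidil, at least 2.48-fold higher. Clec4b2, a lectin receptor, read 6.89 and 7.84 with water against 9.69 and 9.82 with minoxidil (2.39 ± 0.42), and Ms4a7, a membrane protein of macrophages, read 8.02 and 8.24 with water against 10.61 and 9.89 with minoxidil (2.12 ± 0.41). On the tieghemelin arrays Clec5a read 8.73 and 8.30, Clec4b2 9.47 and 9.48 and Ms4a7 9.79 and 9.98, nearer to minoxidil than to water. Defb46, a beta-defensin, read 8.79 and 9.70 with water against 12.29 and 11.63 with minoxidil (2.71 ± 0.44). Lrrc4c, a synaptic adhesion protein, and the secretoglobin Scgb2b3 were not above background with water and were at least 3.24-fold and 2.28-fold higher.

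The rule also took the next 8 genes per direction with the widest gap from control array 2 alone, called there, which rest on that array. The lower 8 were Tpm1, Aldoa, Neb, Tnni2, Mybpc1, Slc25a4, Myh2 and the inner root sheath keratin Krt71, so 7 were muscle genes. Mybpc1, a myosin-binding protein of slow fibres, read 11.14 and 13.81 with water against 9.98 and 9.68 with minoxidil and was called in both. The higher 8 were the receptors Olfr1130, Olfr290, Olfr701, Olfr479 and Vmn1r224, the zinc finger genes Zfp619 and Zim1, and Pramel27. Olfr1130 read 7.44 and 6.66 with water against 9.55 and 8.79 with minoxidil and 8.08 and 7.91 with tieghemelin, 8.08 and 8.06 with maslinic acid, and its minoxidil arrays were the highest of the 8. Zfp619 read 6.61 and 6.14 with water against 8.09 and 8.36 with minoxidil, and 7.94 and 7.57 with tieghemelin, 7.52 and 8.09 with maslinic acid.

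In the inner root sheath, 4 of 14 genes were called lower with both controls (Krt26, Krt27, Krt28 and Tchh) and 0 higher. Against control array 2, 4 were called lower and 1 higher (Krt74), and 13 of 14 had a lower mean, with medians of -0.29 and -0.61. Krt28, a keratin of the sheath, read 9.21 and 9.35 with water and was not above background with minoxidil (7.30 and 7.18), at least 3.62-fold lower, and read 8.30 and 8.18 with tieghemelin, 8.31 and 8.32 with maslinic acid. Tchh, trichohyalin, which hardens sheath and medulla, read 9.23 and 9.24 with water against 8.59 and 7.42 with minoxidil (-1.23 ± 0.45) and 10.09 and 10.39 with tieghemelin, 10.44 and 10.27 with maslinic acid. Krt27, another sheath keratin, read 11.45 and 8.87 with water against 7.73 and 8.34 with minoxidil (-2.13 ± 0.75). The minoxidil arrays were the lowest of the 8 in these 3 of the 14 listed genes, beside 4.23% of all probe sets. The 3 genes are set out here with their values known. Krt28 and Tchh were called in both, and Krt27 only with both controls. Krt71, a keratin of the same layer, read 9.03 and 13.97 with water against 10.33 and 9.21 with minoxidil, with control array 1 below both minoxidil arrays, and was called only against control array 2 (-4.20 ± 0.73).

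Of 12 keratins of the hair shaft 1 was called higher and 0 lower with both controls, and 1 and 2 (Krt35 and Krt86) against control array 2. Krt39, expressed in the shaft cuticle, read 7.75 and 8.38 with water against 9.58 and 9.88 with minoxidil (1.66 ± 0.38) and was called in both, and it read 9.55 and 9.31 with tieghemelin, 9.39 and 9.22 with maslinic acid. For Krt39 the controls were the low group. Krt31, of the cortex, read 8.32 and 8.27 with water against 8.03 and 8.49 with minoxidil (-0.04 ± 0.36), with overlapping groups.

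Among 50 keratin-associated proteins, which cross-link the keratins of the shaft, 11 were called higher and 1 lower with both controls (median 0.96), but 3 and 6 with control array 2 alone (median 0.01, and 1.59 against control array 1). The direction of the family therefore depended on control array 1, whose median over the family was 7.88, against 9.34 on control array 2 and 9.56 and 9.49 with minoxidil. Krtap1-4 read 7.83 and 8.97 with water against 9.84 and 10.18 with minoxidil (1.61 ± 0.48), and Krtap5-3 was not above background with water (7.08 and 6.93) and read 7.94 and 8.67. Both were called higher in both, with Krtap17-1. Krtap7-1 was called lower in both, with 8.69 and 8.63 with water against 7.42 and 7.14 with minoxidil, below background with minoxidil and at least 2.36-fold lower. Members of this family are alike in sequence too.

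Of 21 hair matrix and shaft regulators 1 was called higher (Dlx2) and 2 lower (Foxn1 and Liph) with both controls, 0 and 1 (Cux1) against control array 2, and none in both. Lef1, the WNT effector of the matrix, read 7.12 and 7.74 with water against 7.52 and 7.37 with minoxidil (0.01 ± 0.37). Hoxc13 and Foxn1, which drive shaft keratin genes, were below background in both groups. In the outer root sheath, bulge and hair germ list 3 of 23 were called higher (Sox9, Tcf7l1 and Itga6) and 0 lower with both controls (median 0.04). Against control array 2, 3 were called higher and 2 lower (Krt17 and Postn), and 16 of 23 had a lower mean (median -0.22). Tcf7l1, a WNT repressor of bulge stem cells, read 7.50 and 8.38 with water against 9.45 and 9.19 with minoxidil (1.38 ± 0.42) and was called in both. Sox9, needed for bulge stem cells, read 7.11 and 8.60 with water against 9.19 and 9.11 with minoxidil (1.29 ± 0.51) and was called only with both controls. Lgr5, a stem cell receptor for R-spondins, read 9.07 and 8.64 with water against 9.59 and 9.38 with minoxidil and was called only against control array 2 (0.85 ± 0.35). In these 3 genes the minoxidil arrays were above both controls. The bulge markers Cd34, with 8.31 and 9.56 with water against 9.24 and 9.44 with minoxidil, and Krt15, with 7.48 and 9.87 with water against 9.71 and 7.79 with minoxidil, lay between the controls. Of 21 dermal papilla genes 2 were called lower (Corin and Bmp6) and 0 higher with both controls, and 1 (Bmp6) and 1 (Nog) against control array 2. Corin, a protease of the papilla, read 10.79 and 9.58 with water against 8.51 and 9.43 with minoxidil (-1.21 ± 0.52), and was called only with both controls.

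In the WNT pathway 1 of 37 was called higher (Fzd5) and 1 lower (Sfrp1) with both controls, and 2 and 3 against control array 2. The ligand Wnt10b read 8.17 and 6.72 with water against 7.26 and 6.91 with minoxidil, and the feedback target Axin2 read 8.69 and 6.58 with water against 6.43 and 6.90 with minoxidil. In both, control array 1 was above the 3 other arrays. Fzd5, a WNT receptor, read 9.31 and 9.85 with water against 10.82 and 10.74 with minoxidil (1.20 ± 0.37) and 9.70 and 10.12 with tieghemelin, 9.87 and 10.09 with maslinic acid. It was called in both, and the minoxidil arrays were the highest of the 8. The inhibitor Dkk1 read 8.06 and 8.14 with water against 8.68 and 7.84 with minoxidil, with overlapping groups. Sfrp1, a secreted WNT antagonist, was called lower in both but was below background in both groups.

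In the BMP and TGF-beta list 2 of 32 were called lower (Bmp6 and Smad7) and 0 higher with both controls, and 3 and 1 (Nog) against control array 2. Bmp6, a ligand that keeps follicle stem cells at rest, read 10.42 and 9.42 with water against 8.57 and 8.62 with minoxidil (-1.32 ± 0.41) and was called in both. It read 8.21 and 8.34 with tieghemelin, 8.46 and 8.54 with maslinic acid, so the controls were the high group. Tgfb1, the founding ligand of the family, read 8.89 and 8.63 with water against 7.90 and 8.01 with minoxidil (-0.80 ± 0.35), lower on each minoxidil array but not called. Tgfb2, which the papilla sends to the hair germ, read 9.05 and 7.71 with water against 8.06 and 8.13 with minoxidil, and Bmp2 and Bmp4 were below background in both groups.

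Among 36 ligands and receptors of the FGF, EGF, IGF and HGF families 2 were called higher (Fgf1 and Hbegf) and 1 lower (Fgfr2) with both controls, and 2 and 2 against control array 2. The 36 also include IGF-binding proteins (Igfbp2 to Igfbp7) and the PDGF family genes Pdgfa, Pdgfb and Pdgfrb. Fgf1 was not above background with water (6.94 and 7.11) and read 8.26 and 7.91 with minoxidil, at least 1.32-fold higher and called in both. Fgf7, a growth signal of the papilla, read 7.11 and 8.06 with water against 7.82 and 7.72 with minoxidil (0.19 ± 0.49), and Igf1, which prolongs hair growth in culture, read 8.36 and 10.03 with water against 9.86 and 9.42 with minoxidil (0.45 ± 0.55). Both lay between the controls. Fgf5, which ends hair growth, and Hgf were below background in both groups.

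In the hedgehog pathway 2 of 13 genes were called lower with both controls (Ptch1 and Cdon) and 3 against control array 2 (with Boc), and none was called higher, with medians of -0.34 and -0.26. The ligand Shh read 10.004 and 9.72 with water against 9.42 and 9.29 with minoxidil (-0.51 ± 0.35), below each control but not called. The receptor and target Ptch1 read 7.30 and 7.78 with water against 6.42 and 6.58 with minoxidil, below background with minoxidil and at least 1.09-fold lower. Cdon, a co-receptor, read 8.75 and 8.96 with water against 7.64 and 8.06 with minoxidil (-1.003 ± 0.37) and 9.24 and 8.74 with tieghemelin, 8.70 and 8.59 with maslinic acid. Ptch1 and Cdon were called in both, and for Cdon the minoxidil arrays were the lowest of the 8. Gli1, the target used most as a readout of the pathway, read 8.65 and 9.17 with water against 8.71 and 9.19 with minoxidil (0.04 ± 0.39), with overlapping groups.

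No gene in the list for the minoxidil channel and its activation passed the thresholds with both controls. The list holds subunits of ATP-sensitive potassium channels and sulfotransferases, and also the potassium channel gene Kcnj2 and the nucleotide-cleaving enzymes Entpd1 and Nt5e. 0 of 11 were called higher and 0 lower, and against control array 2 the sulfotransferase Sult1b1 alone was called, as higher. Kcnj8, the pore of the vascular ATP-sensitive potassium channel, read 7.80 and 8.88 with water against 8.53 and 9.27 with minoxidil (0.56 ± 0.48). Abcc9, its sulfonylurea receptor, was not above background with water (7.47 and 7.58) and read 7.71 and 7.49 with minoxidil, near background, so no fold is given. Sult1a1, the sulfotransferase that activates minoxidil, read 8.88 and 8.97 with water against 9.28 and 8.69 with minoxidil (0.06 ± 0.41). The groups overlapped in all 3, and a missed threshold with 2 arrays a group does not show that they were equal.

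Of 26 genes of prostaglandin and related lipid mediators 1 was called higher (Alox15) and 1 lower (Alox5) with both controls, and 1 (Alox15) and 0 against control array 2. Alox15, a lipoxygenase, read 7.60 and 8.05 with water against 9.40 and 9.45 with minoxidil (1.60 ± 0.45) and 8.24 and 8.41 with tieghemelin, 7.87 and 8.99 with maslinic acid. It was called in both, and the minoxidil arrays were the highest of the 8. Ptgs2, the inducible cyclooxygenase, read 7.19 and 7.65 with water against 7.92 and 8.03 with minoxidil (0.56 ± 0.39), above both controls but not called. The prostaglandin receptor Ptger4 read 10.44 and 9.02 with water against 10.10 and 9.38 with minoxidil, between the controls.

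Of 26 angiogenic and hypoxia genes 2 were called higher (Kdr and Car9) and 3 lower (Hif1a, Egln3 and Ndrg1) with both controls, and 3 and 2 against control array 2. Vegfa, the main vessel growth factor, read 10.07 and 10.38 with water against 10.05 and 11.16 with minoxidil (0.38 ± 0.44), with overlapping groups. Its receptor Kdr was not above background with water (7.45 and 7.03) and read 8.35 and 8.26 with minoxidil, at least 1.54-fold higher, and 8.20 and 7.96 with tieghemelin, 8.08 and 7.94 with maslinic acid. The hypoxia target Car9 was not above background with water either (6.91 and 6.96) and read 8.05 and 8.28, at least 1.4-fold higher, and 8.54 and 7.65 with tieghemelin, 8.37 and 8.48 with maslinic acid. In both genes the controls were the low group. The hypoxia factor Hif1a read 11.04 and 9.96 with water against 8.75 and 7.60 with minoxidil (-2.32 ± 0.60) and was called lower in both. Among 23 endothelial genes Kdr was the 1 called with both controls, and 3 were called higher (Kdr, Sele and Selp) and 0 lower against control array 2. The endothelial markers Pecam1, with 5.91 and 7.37 with water against 7.56 and 7.66 with minoxidil, and Vwf, with 8.73 and 8.03 with water against 7.90 and 8.26 with minoxidil, were not called. Of 19 smooth muscle and pericyte genes 3 were called lower (Des, Tagln and Myl9) and 0 higher with both controls, and 1 (Des) and 1 (Higd1b) against control array 2. Tagln, an actin-binding protein, read 8.48 and 7.11 with water against 6.43 and 6.20 with minoxidil and was called only with both controls.

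Of 22 genes of the melanosome and of pigment cells 3 were called higher (Mitf, Oca2 and Pmel) and 0 lower with both controls, and these 3 were called in both, with medians of 0.15 and 0.37. The 22 include Pard3, a cell polarity gene and not a pigment gene, which was matched through the synonym Asip. Mitf, the master regulator of melanocytes, was not above background with water (6.13 and 7.43) and read 8.55 and 8.62 with minoxidil, at least 1.87-fold higher, and 8.08 and 7.68 with tieghemelin, 7.63 and 7.60 with maslinic acid. Oca2, a melanosome transporter, was likewise below background with water (7.36 and 7.04) and read 8.49 and 8.60, at least 1.82-fold higher. Pmel, which forms the fibrils of the melanosome, read 6.64 and 7.87 with water against 8.97 and 8.92 with minoxidil (1.69 ± 0.46). In all 3 both minoxidil arrays exceeded both controls, and for Mitf they were the highest of the 8. Enzymes of melanin synthesis were not called with both controls: Tyrp1 read 7.13 and 7.69 with water against 8.35 and 7.79 with minoxidil (0.66 ± 0.41) and Dct read 7.21 and 8.85 with water against 8.85 and 8.41 with minoxidil (0.60 ± 0.56). Tyr, the first enzyme of that route, was below background in both groups and was called lower against control array 2, the 1 lower call there.

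**Figure D4:**
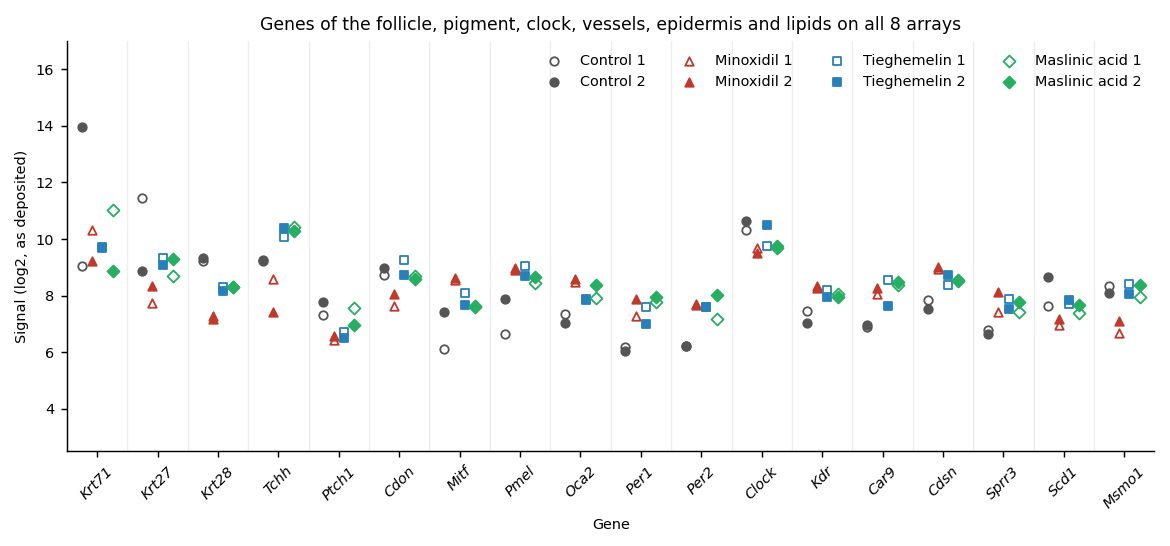
Deposited log2 signal of 18 genes on all 8 arrays, grouped by treatment. For Krt28, Tchh, Cdon and Msmo1 the minoxidil triangles lie under all other arrays, for Mitf they lie above all others, and for Per1, Per2, Kdr and Car9 the 2 control circles lie under the rest.

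In the epidermis, 7 of 52 differentiation genes were called higher and 2 lower with both controls (median 0.38), and 7 and 6 against control array 2 (median 0.09). Cdsn, corneodesmosin, which holds cornified cells together, read 7.86 and 7.54 with water against 8.94 and 9.001 with minoxidil (1.27 ± 0.35). Krtdap, a differentiation-associated protein, read 9.88 and 9.66 with water against 8.74 and 8.36 with minoxidil (-1.22 ± 0.41), and Calml3, a calmodulin of keratinocytes, read 9.83 and 10.08 with water against 9.12 and 8.93 with minoxidil (-0.93 ± 0.38). Cdsn was called higher in both, with the envelope protein Sprr3, and Krtdap and Calml3 were called lower in both. The main suprabasal keratins were not called with both controls, with 9.32 and 10.33 with water against 9.77 and 8.59 with minoxidil for Krt1 and 8.48 and 11.38 with water against 11.49 and 9.99 with minoxidil for Krt10.

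Of 22 basal keratinocyte genes 3 were called higher (Itga6, Itga3 and Fermt1) and 3 lower (Trp63, Dsp and Dsg3) with both controls, and 4 and 6 against control array 2. Itga6, an integrin of the basement membrane, was not above background with water (7.74 and 7.46) and read 9.61 and 8.54 with minoxidil, at least 2.62-fold higher, and Itga3 read 5.91 and 8.34 with water against 8.91 and 9.43 with minoxidil (2.04 ± 0.70). Trp63, the master factor of stratified epithelium, read 9.79 and 10.15 with water against 8.90 and 8.19 with minoxidil (-1.42 ± 0.42), and Dsp, desmoplakin, read 8.99 and 9.21 with water against 7.73 and 8.12 with minoxidil (-1.18 ± 0.45). These 4 were called in both, 2 in each direction, and their groups did not overlap. Krt5 read 10.09 and 13.72 with water against 11.84 and 9.98 with minoxidil, a difference of -0.997 from both controls and -2.81 from control array 2, where it was called lower.

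Among 35 alarmin and wound response genes 3 were called higher (Il1f9, Defb4 and Hbegf) and 2 lower (Il1a and Il1b) with both controls, and 3 and 4 against control array 2. Il1b, an inflammatory cytokine, read 10.14 and 9.49 with water against 8.56 and 8.33 with minoxidil (-1.37 ± 0.46), and Il1f9, an epithelial cytokine of the same family, read 7.96 and 7.79 with water against 8.56 and 9.17 with minoxidil (0.99 ± 0.39). Both were called in both comparisons, in opposite directions. S100a9, an alarmin of neutrophils and stressed keratinocytes, read 8.16 and 7.60 with water against 8.76 and 8.77 with minoxidil (0.88 ± 0.44) and was called only against control array 2. Of 31 interferon-stimulated genes 1 was called higher (Ifi27l2a) and 3 lower (Irf7, Ddx58 and Cmpk2) with both controls, where the median was -0.38. Against control array 2, 5 were called higher and 3 lower, and 15 had a higher and 16 a lower mean, so the direction of the list depended on control array 1. The antiviral genes Mx1, with 8.23 and 8.07 with water against 8.07 and 8.01 with minoxidil, and Ifit1, with 8.24 and 7.38 with water against 7.80 and 8.36 with minoxidil, were not called.

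Of 20 T cell genes 0 were called with both controls, and 1 higher (Cd5) and 2 lower (Cd4 and Gzma) against control array 2. Of 27 macrophage and Langerhans cell genes 2 were called higher (Mertk and Trem2) and 0 lower with both controls, and 2 (Folr2 and Trem2) and 0 against control array 2. The macrophage marker Adgre1 read 8.83 and 8.74 with water against 8.26 and 8.41 with minoxidil, while Mertk, a receptor for dying cells, was not above background with water (5.73 and 7.16) and read 8.10 and 7.69 with minoxidil. Of 24 mast cell and neutrophil genes 1 was called higher, Fcer1a, the IgE receptor chain, with 7.86 and 7.78 with water against 8.64 and 8.76 with minoxidil (0.88 ± 0.36) and 7.79 and 7.70 with tieghemelin, 8.14 and 7.57 with maslinic acid. Both minoxidil arrays were the highest of the 8 for Fcer1a, and against control array 2 it was called with Elane.

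In dermal fat 4 of 27 genes were called lower (Cidec, Cidea, Scd1 and Slc2a4) and 1 higher (Thrsp) with both controls, and 5 and 1 (Nnat) against control array 2. The adipocyte markers Adipoq, with 8.47 and 8.85 with water against 8.84 and 9.01 with minoxidil, and Fabp4, with 11.37 and 14.29 with water against 10.56 and 11.14 with minoxidil, were not among those called with both controls, and Fabp4 was called lower against control array 2. Slc2a4, the insulin-regulated glucose transporter of fat and muscle, read 8.33 and 8.20 with water against 6.07 and 7.16 with minoxidil, and Scd1, a desaturase of fat and sebaceous cells, read 7.64 and 8.65 with water against 6.97 and 7.19 with minoxidil. Both were below background with minoxidil, at least 1.79-fold and 1.65-fold lower, and called in both. Of 26 sebaceous and fatty acid genes 4 were called lower (Awat1, Far1, Cidea and Plin2) and 1 higher (Fa2h) with both controls, and 3 and 1 against control array 2. Fa2h, which makes hydroxylated fatty acids, read 7.98 and 8.21 with water against 8.88 and 9.61 with minoxidil (1.15 ± 0.41), and Plin2, a coat protein of lipid droplets, read 7.96 and 7.94 with water against 6.12 and 7.34 with minoxidil (-1.21 ± 0.49), each called in both. In sterol synthesis 1 of 19 was called higher (Srebf2) and 2 lower (Hmgcs1 and Msmo1, both in both), and 1 and 3 against control array 2. Msmo1, a sterol demethylating oxidase, read 8.33 and 8.09 with water against 6.67 and 7.11 with minoxidil, below background with minoxidil and at least 1.72-fold lower, and 8.43 and 8.06 with tieghemelin, 7.96 and 8.39 with maslinic acid. Hmgcs1, an early enzyme of the pathway, read 8.76 and 9.37 with water against 7.91 and 7.78 with minoxidil (-1.23 ± 0.53). The minoxidil arrays were the lowest of the 8 for Msmo1.

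In the dermis 3 of 29 collagens were called lower (Col6a1, Col11a1 and Col26a1) and 0 higher with both controls, 1 (Col3a1) and 1 (Col20a1) against control array 2, and none in both. Col1a1 read 7.64 and 10.30 with water against 9.48 and 10.16 with minoxidil, and Col3a1 read 7.45 and 10.27 with water against 8.19 and 7.74 with minoxidil, with control array 1 below both minoxidil arrays and control array 2 above them in each. Of 42 matrix and fibroblast genes 3 were called lower with both controls (Tnxb, Serpinh1 and Thy1) and 8 against control array 2, where 2 were called higher (Podn and Loxl1). Thy1, a fibroblast surface protein, read 8.29 and 8.71 with water against 7.17 and 7.40 with minoxidil (-1.21 ± 0.38) and was called in both. Dcn, decorin, read 7.68 and 11.07 with water against 8.37 and 8.29 with minoxidil and was called only against control array 2. Of 14 Schwann cell and 9 blood cell genes 0 were called with both controls, and Ms4a1 was called higher against control array 2.

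Of 21 clock genes 3 were called higher (Per1, Per2 and Nr1d2) and 2 lower (Clock and Bhlhe40) with both controls, and 3 (Per1, Per2 and Nr1d1) and 1 (Clock) against control array 2. Per2, a repressor of the daily clock, was not above background with water (6.21 and 6.23) and read 7.70 and 7.66 with minoxidil. Per1, of the same family, read 6.17 and 6.05 with water against 7.28 and 7.87 with minoxidil. For both the lower bound of the fold was under 1, so no fold is given. Clock, part of the activator of both, read 10.32 and 10.64 with water against 9.67 and 9.49 with minoxidil (-0.90 ± 0.39). Per1, Per2 and Clock were called in both. Per1 read 7.61 and 6.99 with tieghemelin, 7.77 and 7.96 with maslinic acid, and Per2 read 7.60 and 7.60 with tieghemelin, 7.19 and 8.01 with maslinic acid, so the controls were the low group. Nr1d2, a repressor in the second loop of the clock, read 6.36 and 8.14 with water against 9.13 and 8.76 with minoxidil and was called only with both controls. Arntl, the partner of Clock, read 8.48 and 8.36 with water against 7.90 and 8.23 with minoxidil, and the output gene Dbp read 9.36 and 9.55 with water against 10.21 and 9.56 with minoxidil, and neither was called. The time of day of sampling is not given in the labels, and its part was not tested.

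Of 23 immediate early genes 0 were called with both controls and 0 against control array 2. Fos, the best known of them, read 9.51 and 7.86 with water against 7.63 and 7.28 with minoxidil, with control array 1 above the rest. Of 31 stress genes 1 was called higher (Xbp1) and 3 lower (Nqo1, Bag3 and Atf4) with both controls, and 1 and 4 against control array 2. Atf4, the factor of the integrated stress response, read 9.84 and 8.32 with water against 7.09 and 7.31 with minoxidil, at least 3.16-fold lower, and Bag3, a co-chaperone also found in muscle, read 8.27 and 7.89 with water against 6.62 and 7.06 with minoxidil, at least 1.58-fold lower. Both were below background with minoxidil and called in both. Xbp1, a factor of the unfolded protein response, was not above background with water (5.99 and 7.04) and read 8.10 and 8.01 with minoxidil, at least 1.29-fold higher. In the cell cycle list 2 of 40 were called higher (Mcm2 and Bub1) and 2 lower (Mcm4 and Rrm1) with both controls, and 1 and 4 against control array 2. Mcm2 and Mcm4, subunits of 1 replication helicase, were called in both in opposite directions, with 7.65 and 7.66 with water against 8.70 and 9.005 with minoxidil for Mcm2 (1.20 ± 0.36) and 9.19 and 8.77 with water against 8.02 and 7.31 with minoxidil for Mcm4 (-1.31 ± 0.40). Mki67, a marker of dividing cells, read 8.77 and 9.75 with water against 8.35 and 8.61 with minoxidil (-0.78 ± 0.43) and was called lower only against control array 2.

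For 2 large groups of housekeeping genes the direction depended on which control was used. Of 66 cytosolic ribosomal protein genes 46 had a minoxidil mean above the control mean, but 55 were lower than control array 2. Their median difference was 0.54 with both controls, 1.74 against control array 1 and -0.76 against control array 2. The median level was 8.59 and 10.91 on the control arrays and 10.17 and 9.90 on the minoxidil arrays, so minoxidil lay between the controls. With both controls 2 were called higher and 6 lower, against control array 2, 0 and 21, and 5 were called lower in both (Rpl23, Rpl36al, Rpl37, Rpl7l1 and Rps26). The list was taken by gene symbol, so it also holds relatives of ribosomal protein genes such as Rpl7l1. Rps26, of the small subunit, read 10.58 and 8.31 with water against 6.33 and 7.21 with minoxidil, and Rpl36al, of the large subunit, read 8.30 and 8.25 with water against 6.95 and 6.66 with minoxidil. Both were below background with minoxidil. Many ribosomal genes have processed copies elsewhere in the genome, so the signals of single members are uncertain.

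Of 47 listed nuclear-encoded respiratory chain genes 2 were called lower with both controls (Ndufa1 and Ndufv1) and 13 against control array 2. The list is a selection of subunits and leaves out Ndufs5, the complex I subunit given above as called lower in both. The median was 0.03 with both controls, 0.54 against control array 1 and -0.47 against control array 2. Ndufv1, a core subunit of complex I, read 10.19 and 10.14 with water against 8.31 and 7.97 with minoxidil (-2.02 ± 0.35) and 8.73 and 8.97 with tieghemelin, 8.75 and 9.09 with maslinic acid. It was called lower in both, and the minoxidil arrays were the lowest of the 8. Sdhb, a subunit of complex II, read 7.03 and 10.27 with water against 7.90 and 7.56 with minoxidil and was called only against control array 2.

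**Figure D5:**
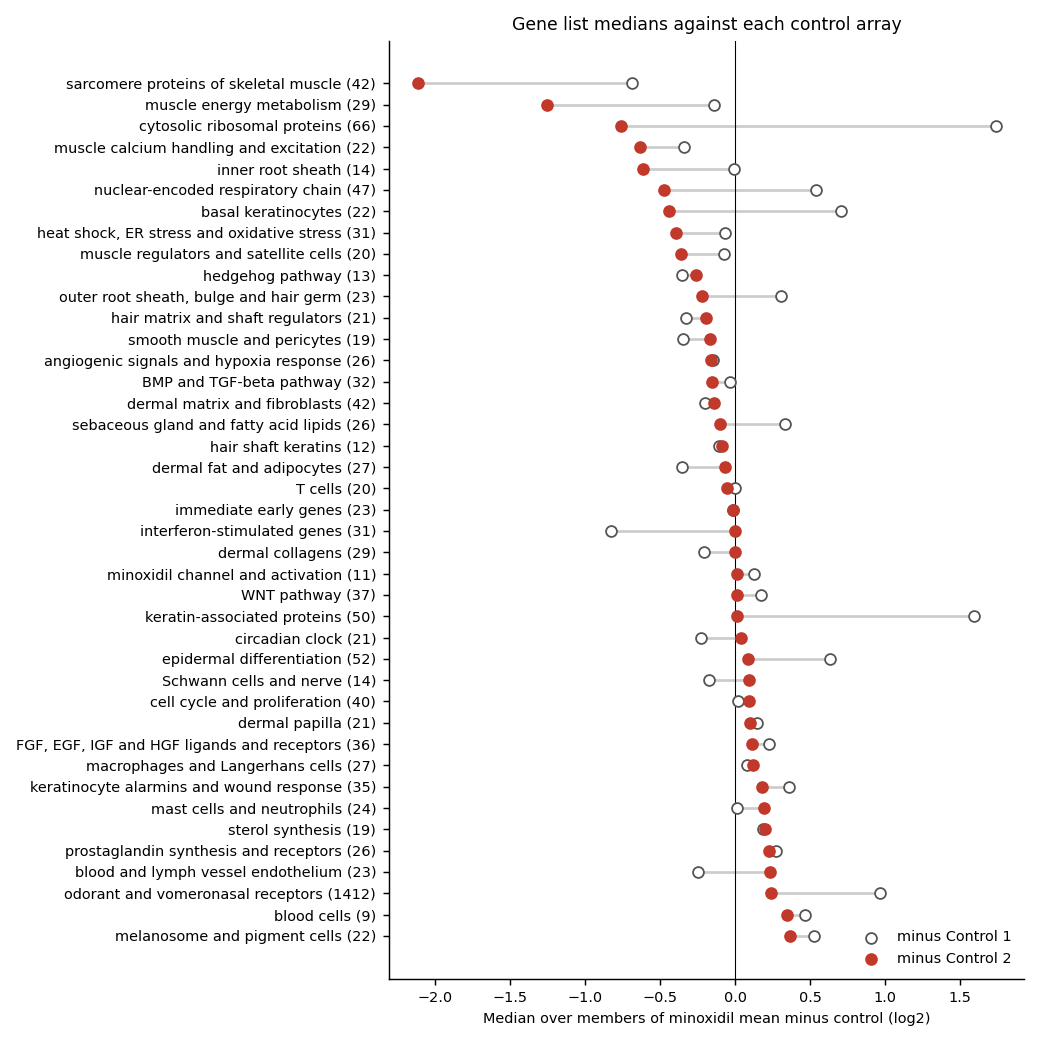
Median over the members of each gene list of the minoxidil mean minus control array 1 (open) and minus control array 2 (filled), in log2 units, with the number of measured members in brackets. Sarcomere, energy and calcium genes of muscle lie left of 0 against both controls, ribosomal, respiratory chain and basal keratinocyte genes lie on opposite sides of 0 against the 2 controls, and pigment genes lie right of 0 against both.

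The minoxidil arrays were last set against the 2 other treatments, given for the same 20 days. These comparisons share the minoxidil arrays with those above. No probe set reached an adjusted p under 0.05 in limma against tieghemelin or against maslinic acid, with or without control array 1, which enters these fits through the shared spread. With all 8 arrays 732 probe sets passed the study's thresholds against tieghemelin (3.3%) and 800 against maslinic acid (3.6%), and the same numbers had an unadjusted p under 0.05. Without control array 1, 2845 and 3024 had an unadjusted p under 0.05. At the study's thresholds in that fit, 2314 (10.4%) differed from tieghemelin, 5.47% higher with minoxidil and 4.95% lower, and 2463 (11.1%) from maslinic acid, 5.79% higher and 5.3% lower. In it 15 of 42 sarcomere genes were called higher than with tieghemelin and 0 lower (median 0.81). Against maslinic acid, whose arrays differed from each other in these genes, 1 was called higher and 1 lower (median 0.03). Tchh differed by -2.23 from tieghemelin and -2.35 from maslinic acid and was called lower against each. Krt28 and Msmo1 were not above background with minoxidil, so no fold is given, and both minoxidil arrays were below all arrays of the 2 other treatments in each. Fzd5 differed by 0.87 and 0.80 and Fcer1a by 0.96 and 0.85, called higher against each. Both minoxidil arrays lay above the 6 other arrays for 1511 probe sets (6.8%) and below them for 939 (4.23%).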

How the data were processed

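The deposited values are log2 signals of Clariom S Mouse arrays. Per the series' design text the authors normalized the scans in Transcriptome Analysis Console 4.0.1. The submitters' processing notes also name RMA, a robust multi-array average, and Affymetrix Expression Console. The scale was taken as log2 from the range of the values, whose ceiling of 19.93 is shared by 6 arrays. A genome build is not given in the sources used here. Here 6640 control probe sets were left out and 22206 were tested as deposited, 19572 of them with 1 gene symbol from the platform annotation and 2634 unnamed. Promoters are from RefSeq. Differences were fitted on all 8 arrays in 4 groups (4 residual degrees of freedom) with limma 3.58.1 (R 4.3.3) and without control array 1 (3, with the lone control assumed to vary like the other groups), with Benjamini-Hochberg adjustment over all probe sets. A permutation test of 2 arrays against 2 cannot go below p = 0.33. The code was tested on simulated data.

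The members and the 41 lists were chosen with earlier results of these data known, so calls in a list are a description. Named genes were the 12 per direction with the widest gap between groups among those called in both fits, the next 8 per direction with the widest gap from control array 2 alone, and in each list its core members and up to 4 others with the widest gap, without predicted genes. Genes outside this rule are named where they were called in a list; they were chosen after their values were seen. Alternatives were a replicate block, quantile normalization, a common median, brighter probe sets only, other eBayes settings, array weights, the 4 arrays alone and each array left out.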

Additional observations from a re-analysis of the deposited data

How the results depend on the processing

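With both controls 0 probe sets had an adjusted p under 0.05 under each alternative that kept all 4 arrays. Leaving out 1 of these 4 arrays gave 0 to 8363, the highest without control array 2 and 1 without control array 1. The count at the study's thresholds, 2502, was 2450 with the replicate block, 2438 with quantile normalization, 2454 with arrays shifted to a common median and 2434 with trend and robust eBayes. It was 1265 on brighter probe sets only, 1467 without moderation, 683 with the 4 arrays alone and 1203 with array weights, and leaving out 1 array gave 1189 (without minoxidil array 1) to 10508 (without control array 2). The share of calls that were higher, 61.9%, was 50.6% without control array 1, 77.0% on brighter probe sets and 76.7% with array weights. The replicate numbers were not taken as pairs (correlation of deviations 0.02 for control and minoxidil). Of the 2502 calls, 47.6% were called in the same direction without control array 1. The respiratory chain median ranged from -0.47 (without control array 1) to 0.54 (without control array 2) and was 0.03 with both. Not all genes named were called with both controls, so the counts of named genes that follow are not shares of those called. Of the genes named, 78 no longer passed those thresholds with array weights, 65 with the 4 arrays alone, 38 without moderation, 33 without control array 1, 57 and 62 without minoxidil array 1 or 2 and 17 with the replicate block. No named gene called with both controls changed direction under these alternatives, but 3 named genes not called there passed the thresholds with the opposite sign, Krt14 at -1.42 and Cd4 at -1.32 without control array 1 and Mef2c at 2.04 without control array 2. The sarcomere median stayed below 0 in all 12 alternatives, from -2.11 without control array 1 to -0.69 without control array 2. It was -1.41, as in the main fit, with the replicate block, trend and robust eBayes, no moderation, the 4 arrays alone and array weights. Those settings change only the spread in this design, so they could not change the direction of a list or a named gene. Against tieghemelin and maslinic acid 0 probe sets had an adjusted p under 0.05 without control array 1, without each minoxidil array and with the replicate block. The cause of these shifts was not tested.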
